A study of Homo sapiens with 12 samples.

Results

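TBX10, PLK5 and AC068707.2 are 3 of the 58735 genes listed in the RNA sequencing tables of HAP1 cells and of a HAP1 derivative without SETDB1. They were chosen by their read counts in these same libraries, which rose in the knockout with both library kits and were as high in the directional as in the non-directional tables, so the values of these genes below describe that choice and were given no test. The choice set no numeric threshold. HAP1 is a near-haploid human line that the labels assign to chronic myelogenous leukemia. The cells of both genotypes, WT and SETDB1 knockout, were grown in IMDM with 10% FBS, and no other treatment was named. Total RNA of each genotype was carried through a NEBNext Ultra II library kit, either the plain version, here called non-directional, or the Directional one, which keeps the strand of the RNA, with 3 libraries for each genotype and kit and 12 in all. How the knockout was made, and whether it is a single clone, was not given in the sources used here, so clone and genotype cannot be told apart.

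SETDB1 is a histone methyltransferase that places methyl groups on lysine 9 of histone H3, a mark of silent chromatin at repeats and at many genes that a cell type does not use. TBX10 encodes a member of the T-box family, transcription factors that share a DNA-binding domain and act mostly in the embryo. PLK5 belongs to the polo-like kinases, regulators of the cell cycle and of the cell's response to stress, but the human protein lacks much of the kinase domain and is known mainly from the nervous system. AC068707.2 is annotated as a long intergenic non-coding RNA without a known function.

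In GENCODE 29 on GRCh38, TBX10 (ENSG00000167800) occupies chr11:67631303-67639560 on the minus strand, with 8 exons and 1548 exon bases. PLK5 (ENSG00000185988) occupies chr19:1524074-1536046 on the plus strand, with 3073 exon bases over its transcripts. AC068707.2 (ENSG00000285712) occupies chr10:43325833-43350792 on the minus strand, with 3 exons and 1590 exon bases. No exon of these genes overlaps an annotated exon of another gene on either strand. The RefSeq annotation (GRCh38.p14) holds more records at the last locus. Its plus-strand non-coding LOC105378271 (chr10:43318398-43350306) spans 2 of the 3 exons of AC068707.2 and ends 27 bases before the remaining one. LINC02633 (chr10:43322994-43327938, plus strand) lies where GENCODE places AC068707.1. The non-coding LOC107984226 (chr10:43343222-43351218) lies on the minus strand, as AC068707.2 does, and covers 1 of its 3 exons, the first. RefSeq also lists the non-coding LOC107985337 (chr19:1517402-1522477) upstream of PLK5 and LOC124902696 (chr11:67619939-67627393) downstream of TBX10. Their strand was not given, and neither overlaps the span of PLK5 or TBX10.

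The RefSeq windows of 250 bases before a transcript start are shown for TBX10, for its neighbour NUDT8, whose directional reads changed most among the neighbouring genes, and for the transcripts on both strands at the AC068707.2 locus. LINC02633 and LOC107984226 each have a pair of windows there, of which the first is printed. Capitals mark CG dinucleotides, the bases at which vertebrate promoters can be methylated. The table had no entry under the symbols PLK5 or AC068707.2.
TBX10, minus strand, chr11:67639764-67640013: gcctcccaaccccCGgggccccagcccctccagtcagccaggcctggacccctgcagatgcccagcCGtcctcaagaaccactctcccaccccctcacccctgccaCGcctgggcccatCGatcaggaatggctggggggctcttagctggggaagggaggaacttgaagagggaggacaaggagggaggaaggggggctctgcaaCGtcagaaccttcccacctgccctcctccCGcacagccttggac
NUDT8, minus strand, chr11:67629938-67630187: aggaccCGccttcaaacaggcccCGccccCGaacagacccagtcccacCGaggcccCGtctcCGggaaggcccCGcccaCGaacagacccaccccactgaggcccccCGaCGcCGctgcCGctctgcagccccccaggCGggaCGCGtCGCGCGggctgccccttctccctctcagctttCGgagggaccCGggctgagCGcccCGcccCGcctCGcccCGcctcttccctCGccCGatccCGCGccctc
LOC105378271, plus strand, chr10:43318148-43318397: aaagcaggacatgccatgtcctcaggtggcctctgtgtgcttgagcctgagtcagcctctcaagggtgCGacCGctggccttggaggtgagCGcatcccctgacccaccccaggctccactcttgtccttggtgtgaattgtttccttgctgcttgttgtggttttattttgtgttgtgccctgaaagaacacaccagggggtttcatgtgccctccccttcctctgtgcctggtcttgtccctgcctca
LINC02633, plus strand, chr10:43322744-43322993: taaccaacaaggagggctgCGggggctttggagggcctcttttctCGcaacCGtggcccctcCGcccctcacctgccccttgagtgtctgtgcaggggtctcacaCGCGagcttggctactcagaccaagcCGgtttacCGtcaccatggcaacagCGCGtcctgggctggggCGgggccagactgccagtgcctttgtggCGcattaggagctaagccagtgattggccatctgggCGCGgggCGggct
LOC107984226, minus strand, chr10:43351219-43351468: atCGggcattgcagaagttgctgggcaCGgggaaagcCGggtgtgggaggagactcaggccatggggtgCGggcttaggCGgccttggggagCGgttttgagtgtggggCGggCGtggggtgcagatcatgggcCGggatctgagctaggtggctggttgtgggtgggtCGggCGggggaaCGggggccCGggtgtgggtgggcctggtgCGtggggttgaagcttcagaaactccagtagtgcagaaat
The TBX10 window held 6 CG and 67.2% G and C, and lies within the RefSeq span of the gene, which reaches further upstream than the GENCODE one. Its CG number stood at percentile 38.1 of the 35116 windows in the table, which had a median of 11. LOC105378271 held 3 CG (percentile 22.9), LINC02633 15 (percentile 57.1), LOC107984226 14 (percentile 55.2) and NUDT8 29 (percentile 85.9). The TBX10 and LOC105378271 windows were thus poor in CG, and the NUDT8 window rich. The letters GGGCGG, a core recognised by Sp1, were found on either strand 3 times in NUDT8, 3 times in LINC02633 and 2 times in LOC107984226, and 0 times in TBX10 and LOC105378271; 42.6% of all windows hold them. The T-box half-site letters AGGTGTGA were in none of the 5 windows and in 0.786% of all windows.

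SETDB1 itself had 519 to 651 reads in the non-directional wild-type libraries and 106 to 118 in the knockout libraries, a log2 fold change of -2.39 (SE 0.079, edgeR quasi-likelihood test, adjusted p = 7e-43). With the directional kit it had 7 to 17 and 4 to 11 reads (adjusted p = 0.256). The non-directional libraries held 8921959 to 10199215 gene counts and the directional ones 532021 to 676691, and in the latter 5.26% of the listed reads fell in genes, against 80.3%. Reads are therefore given below as counts and as RPM, the reads for each 1000000 listed reads, where listed reads include those assigned to no gene. They also include 797850 to 897413 alignments that were not unique in each non-directional library, and 0 in each directional one. The 3 non-directional knockout libraries differed from each other by less than the sampling noise of their counts, whereas pairs in the other groups differed by more. They were kept as 3 as labelled, and for each of the 3 genes a value with them summed to 1 is given beside the main one. Of 10 blood lineage markers, 7, among them PTPRC, CD34 and GATA1, had at most 3 reads in every non-directional library, and their summed level came from KIT, RUNX1 and TAL1 (55.3 to 57.3 CPM in WT cells, 37.2 to 40.4 in the knockout). Most defining blood markers were thus near 0. The fusion partners BCR and ABL1 were read in every non-directional library (46.7 to 49.2 CPM summed in WT cells, 87.7 to 93.7 in the knockout). Gene counts do not show whether BCR and ABL1 are fused. Of 7 fibroblast markers DCN, LUM and PDGFRB had at most 3 reads in each non-directional library, and COL1A2 and THY1 in each knockout but not each WT library. The summed level of the 7 was 21.7 to 22.6 CPM in WT cells and 18.3 to 20.2 in the knockout. The part of these shifts in the results below was not tested. In bulk RNA, fewer cells that express a gene and less RNA per cell cannot be told apart.

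TBX10 had 2, 4 and 3 reads in the non-directional wild-type libraries and 82, 93 and 105 in the knockout libraries. With the directional kit it had 6, 4 and 3 reads in WT cells and 105, 89 and 76 in the knockout. The lowest knockout library lay far above the highest wild-type library in both kits, a separation that the choice of the 3 genes favoured. Its level rose from 0.258 ± 0.101 to 7.56 ± 0.79 RPM with the non-directional and from 0.375 ± 0.122 to 8.09 ± 0.70 RPM with the directional kit (SD, n = 3 each). The log2 fold change was 4.84 (SE 0.28) and 4.39 (SE 0.25), and 4.87 with the non-directional knockout libraries summed to 1. Because the wild type had only 9 and 13 reads in all, the size of the change was known loosely: the ratio of summed reads was 29.8 (95% exact interval 15.5 to 65.9) and 21.6 (12.4 to 41.1), where the interval covers counting error only.

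PLK5 had 4, 3 and 6 reads in the non-directional wild-type libraries and 48, 51 and 61 in the knockout libraries. In the directional libraries it had 4, 4 and 3 reads in WT cells and 40, 36 and 24 in the knockout. Again the genotypes did not overlap, though the directional knockout replicate 3 was lower than the other two. Its level was 0.366 ± 0.129 and 4.32 ± 0.46 RPM with the non-directional kit, and 0.317 ± 0.024 and 2.99 ± 0.57 RPM with the directional kit (SD, n = 3 each). The log2 fold change was 3.52 (SE 0.30) and 3.20 (SE 0.35), and 3.56 with the summed knockout libraries. The ratio of summed reads was 11.8 (95% exact interval 6.71 to 22.6) and 9.46 (5.07 to 19.6).

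AC068707.2 was the one of the 3 with reads well above a few counts in WT cells. It had 19, 12 and 22 reads in the non-directional wild-type libraries and 87, 107 and 106 in the knockout libraries. With the directional kit it had 15, 14 and 19 reads in WT cells and 80, 81 and 67 in the knockout. The genotypes were separate in both kits, by a narrower margin than for TBX10. Its level was 1.49 ± 0.40 and 8.10 ± 0.85 RPM with the non-directional kit, and 1.42 ± 0.41 and 6.86 ± 0.49 RPM with the directional kit (SD, n = 3 each). The log2 fold change was 2.42 (SE 0.19) and 2.30 (SE 0.20), and 2.45 with the summed knockout libraries, and the ratio of summed reads 5.43 (95% exact interval 4.04 to 7.41) and 4.94 (3.61 to 6.90).

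**Figure D1:**
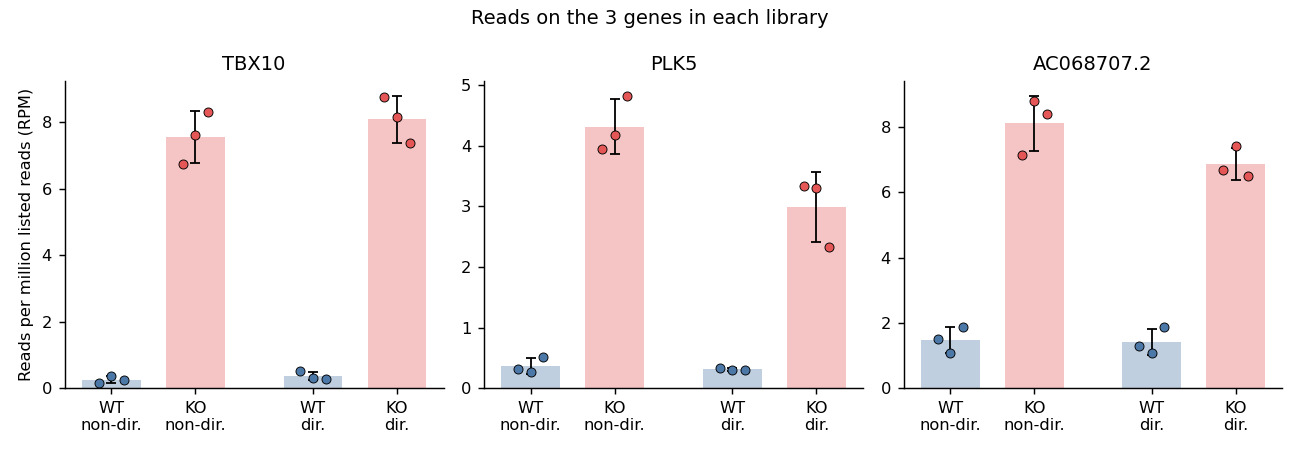
RPM (reads for each 1000000 listed reads) of TBX10, PLK5 and AC068707.2 in WT (blue) and SETDB1 knockout (KO, red) libraries of the non-directional (non-dir.) and directional (dir.) kits; points are libraries, bars the mean and error bars the SD of 3. In each panel the knockout points of a kit lie above all wild-type points, and the bars of both kits are of similar height, with PLK5 at 4.32 and 2.99 RPM in the knockout.

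Set beside all genes, these were among the larger rises, as the choice favours. With the non-directional kit TBX10 ranked 63, PLK5 99 and AC068707.2 166 of 13778 genes by log2 fold change, and with the directional kit 8, 18 and 31 of 4745. Both kits called 112 of 3020 genes tested in both higher (3.71%). Of these, 42 had a directional level at least 0.5 times the non-directional one in the knockout, and 14 of the 42 had no opposite-strand exon overlap. TBX10 had the largest non-directional log2 fold change of the 14, followed by LINC02022, PLK5, AL391358.1, AC068707.2 and the nuclear receptor gene ESRRB. The non-directional kit does not keep the strand, so levels per exon length may include reads of either strand. Per exon length, the level in the non-directional knockout libraries was 4.88 ± 0.51 RPM per kilobase for TBX10, 1.40 ± 0.15 for PLK5 and 5.10 ± 0.53 for AC068707.2 (SD, n = 3). TBX10 and AC068707.2 did not differ beyond their spread, and PLK5 was lower than both. In the wild type the levels were 0.167 ± 0.066, 0.119 ± 0.042 and 0.935 ± 0.251 RPM per kilobase (SD, n = 3), so that AC068707.2 was highest and the other two did not differ beyond their spread.

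As the choice requires, the ratio between the kits set these genes apart from most others. Among 8261 genes with no opposite-strand exon overlap the level in directional knockout libraries was a median of 0.0052 times that in the non-directional ones, and 0.0053 in WT cells. The 10 highly expressed genes checked, ACTB and GAPDH among them, had a median of 0.0035 in the knockout. The directional tables thus held few reads of a gene's own transcripts. The ratio was 1.07 ± 0.15 in the knockout and 1.45 ± 0.74 in WT cells for TBX10, 0.692 ± 0.152 and 0.867 ± 0.312 for PLK5, and 0.847 ± 0.107 and 0.955 ± 0.377 for AC068707.2 (SD propagated from n = 3 for each kit). In the knockout 24 of the other genes lay above TBX10, 73 above PLK5 and 59 above AC068707.2, and 99 of the 8261 (1.20%) reached 0.5. For each of the 3 the ratios of the genotypes differed by less than the SD of the WT ratio, which rests on few reads. The difference of the fold change between kits was -0.29 (SE 0.49) for TBX10, -0.18 (SE 0.47) for PLK5 and -0.05 (SE 0.25) for AC068707.2 on the log2 scale. Less the directional level, the non-directional knockout level was -0.53 ± 1.06 RPM for TBX10, 1.33 ± 0.73 for PLK5 and 1.24 ± 0.98 for AC068707.2 (propagated SD). TBX10 thus had as many reads with the directional as with the non-directional kit, and PLK5 and AC068707.2 somewhat fewer, in tables that held few reads from a typical gene's own strand. Of 5495 genes with an opposite-strand exon overlap, 11.5% reached 0.5 in the knockout, beside 1.20% of those without. Directional reads listed under a gene may thus be of the strand opposite to it, which was not tested for the 3 genes. The strand setting of the counting was not given in the sources used here, and the alignments were not analysed here.

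**Figure D2:**
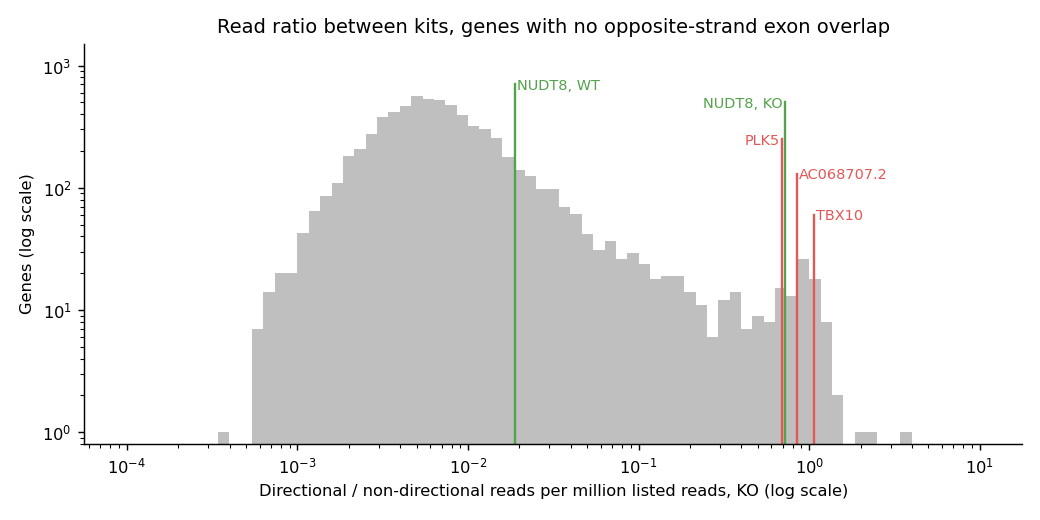
Directional divided by non-directional RPM in the knockout (log axis) for genes tested with the non-directional kit that have no exon overlap on the opposite strand; genes with a ratio of 0 are left out, and gene numbers are on a log axis. Red lines mark TBX10 (1.07), PLK5 (0.692) and AC068707.2 (0.847) and green lines NUDT8 in WT cells (0.0187) and in the knockout (0.724); line heights have no meaning.

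The genes around the 3 loci were not used to choose them and could be tested. GENCODE lists 41 genes within 100 kb, of which 21 were tested with the non-directional kit. Of these 13 were higher and 2 lower in the knockout at an edgeR adjusted p under 0.05 (71.4%), against 51.5% of all 13778 genes (25.5% higher, 25.9% lower). Among the 13 neighbours tested that have no opposite-strand exon overlap, 7 were called (6 higher, 1 lower), a share close to 51.5%. A fit over all 12 libraries gave 2400 higher and 4170 lower genes in place of 3517 and 3572, and among the neighbours 10 higher and 4 lower of 25 tested. The median log2 fold change of the 21 was 0.18, against -0.0012 over all genes, so most neighbours moved far less than the 3 genes. With the directional kit 4 of 11 were called, NUDT8, GSTP1, REEP6 and RPS15, each higher, against 16.2% of all 4745 genes (7.67% higher and 8.54% lower).

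**Figure D3:**
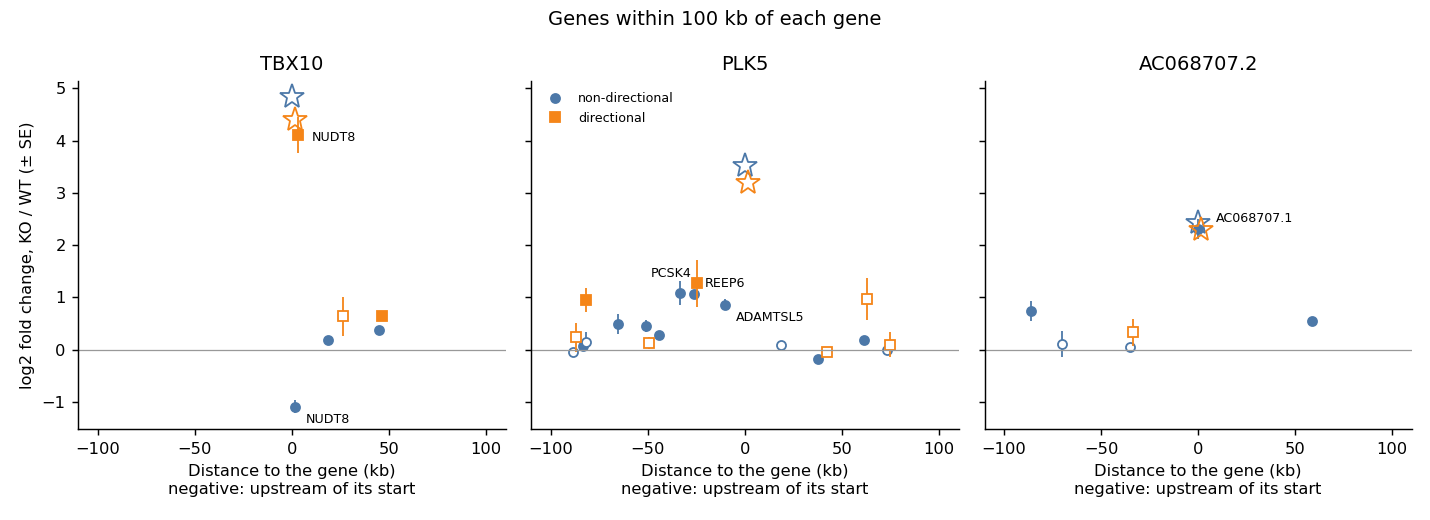
Log2 fold change (knockout over wild type, ± SE) of tested genes against their distance from TBX10, PLK5 or AC068707.2 in kilobases, where negative values are upstream of the gene's start and genes that overlap it stand at 0; circles are the non-directional and squares, shifted slightly to the right, the directional kit. Filled symbols have an edgeR adjusted p under 0.05, open symbols do not, and open stars are the named genes themselves (not tested). NUDT8 lies at -1.09 with the non-directional and at 4.10 with the directional kit.

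NUDT8, which encodes a mitochondrial Nudix hydrolase, starts 1372 bases beyond the end of TBX10 on the same strand (ENSG00000167799, chr11:67627938-67629930). With the non-directional kit it had 146, 162 and 128 reads in WT cells and 74, 53 and 87 in the knockout. With the directional kit it had 1, 4 and 3 reads in WT cells and 44, 45 and 49 in the knockout. The non-directional reads were thus lower and the directional reads higher in every knockout library than in any wild-type library. The log2 fold change was -1.09 (SE 0.13, adjusted p = 6.7e-12 by edgeR) with the non-directional and 4.10 (SE 0.34, adjusted p = 1.8e-18 by edgeR) with the directional kit, and the kits differed by 5.32 (SE 0.38, edgeR interaction test, adjusted p = 8.5e-42). That test passed for 1.82% of 15832 genes, 1.17% with the higher value in the directional kit. Of the 3020 genes tested in both kits 23 were called lower with the non-directional and higher with the directional kit (0.762%), and NUDT8 had the largest directional rise of them.

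The directional level of NUDT8 was 0.0187 ± 0.0107 times the non-directional one in WT cells and 0.724 ± 0.188 times in the knockout. The first value lay above the third quartile of 0.0102 over genes with no opposite-strand exon overlap in WT cells, and the second beside those of the 3 genes. The non-directional level less the directional level was 12.1 ± 2.0 RPM in WT cells and 1.59 ± 1.40 RPM in the knockout (SD propagated from n = 3 for each kit), which left the knockout value about its own SD above 0. The directional level of NUDT8 in the knockout was 4.18 ± 0.54 RPM, and that of TBX10 8.09 ± 0.70 RPM (SD, n = 3). Both genes are annotated on the minus strand.

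Beyond NUDT8 the change at this locus was small or rested on few reads. The pseudogene DOC2GP, 15045 bases downstream of TBX10, had 8, 10 and 10 non-directional reads in WT cells and 2, 5 and 4 in the knockout, with 0 to 2 and 2 to 4 directional reads, too few to be tested in either kit alone. In the fit over all 12 libraries its log2 fold change was greater by 3.06 (SE 1.04) with the directional kit, a difference that did not pass (adjusted p = 0.135 by edgeR). NDUFV1, a subunit of respiratory complex I, rose by a log2 fold change of 0.18 (SE 0.029, adjusted p = 6.8e-08 by edgeR), and GSTP1, a glutathione transferase, by 0.37 (SE 0.024, adjusted p = 2e-24 by edgeR) with the non-directional and 0.64 (SE 0.10, adjusted p = 4.5e-07 by edgeR) with the directional kit. Upstream of TBX10, the aminoacylase gene ACY3, 2994 bases away, had at most 1 read in any library, and 9 of the 15 genes around TBX10 had at most 3.

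Around PLK5 7 of 9 genes tested upstream and 1 of 4 tested downstream were called higher with the non-directional kit, beside 25.5% of all genes. Of the upstream genes called, RPS15 had a log2 fold change of 0.06 (SE 0.026, adjusted p = 0.032 by edgeR). It kept that call in 4 of 12 alternatives. The others, APC2, AC027307.2, C19orf25, PCSK4, REEP6 and ADAMTSL5, overlap an exon on the opposite strand, which this kit does not separate. ADAMTSL5, which encodes a protein of the extracellular matrix and lies 10469 bases away on the minus strand, had 104, 102 and 83 non-directional reads in WT cells and 177, 184 and 187 in the knockout. Its log2 fold change was 0.85 (SE 0.11, adjusted p = 5.5e-11 by edgeR), and its directional reads were 0 in all libraries but 1 knockout library with 1 read. REEP6, an endoplasmic reticulum membrane protein of photoreceptors and testis, 26146 bases away, had 459, 437 and 413 reads in WT cells and 928, 927 and 998 in the knockout (log2 fold change 1.06, SE 0.051, adjusted p = 1.5e-31 by edgeR). Its directional rise rested on 4 to 6 reads in WT cells and 11 in each knockout library (log2 fold change 1.27, SE 0.45, adjusted p = 0.038 by edgeR) and was lost when any library was left out (adjusted p from 0.088 to 0.161) and in the DESeq2 test (adjusted p = 0.244). PCSK4, a proprotein convertase of germ cells, had a log2 fold change of 1.09 (SE 0.23, adjusted p = 3.9e-05 by edgeR). PCSK4 and REEP6 lie on opposite strands and share 6 exon bases, out of 3792 and 2449.

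On the other side of PLK5 the nearest gene, MEX3D, which encodes an RNA-binding protein, 18622 bases away, had 435, 379 and 344 non-directional reads in WT cells and 418, 452 and 427 in the knockout, with no call (log2 fold change 0.10, SE 0.064, adjusted p = 0.212 by edgeR). MBD3, a subunit of the NuRD chromatin complex, was lower by a log2 fold change of -0.18 (SE 0.046, adjusted p = 3.9e-04 by edgeR). Of the 13 genes tested around PLK5 8 were higher and 1 lower, beside 25.5% and 25.9% of all genes. The largest of these rises was 1.09, far below that of PLK5 itself, and no neighbour among those tested with the directional kit other than REEP6 and RPS15 was called there. APC2 had a ratio between the kits of 1.14 ± 0.16 in the knockout (SD propagated from n = 3 for each kit), but its exons overlap AC027307.2 and C19orf25 on the opposite strand, whereas those of PLK5 overlap no gene.

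At the third locus the GENCODE gene AC068707.1, a long intergenic non-coding RNA on the plus strand (ENSG00000224265, chr10:43323665-43327932), overlaps the span but no exon of AC068707.2. It had 11, 19 and 21 non-directional reads in WT cells and 93, 93 and 81 in the knockout, and 0 in each of the 6 directional libraries. Every knockout library thus lay above every wild-type library with 1 kit, and no read was listed with the other. Its log2 fold change was 2.31 (SE 0.20, adjusted p = 6.9e-18 by edgeR), beside 2.42 (SE 0.19) for AC068707.2, and its level 1.46 ± 0.51 and 7.22 ± 0.71 RPM (SD, n = 3 each), beside 1.49 ± 0.40 and 8.10 ± 0.85 RPM. A count of 0 allows up to 3 reads over the 3 directional libraries of a genotype, which limits the ratio between the kits to 0.0595 in WT cells and 0.0125 in the knockout. AC068707.1 and AC068707.2 thus rose to a similar extent, and of these genes only the minus-strand AC068707.2 was given directional reads. That listing does not give the strand of the RNA, since the directional tables held few reads of a gene's own transcripts. The strand of these reads was not tested.

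The other neighbours of AC068707.2 moved less. RASGEF1A, a Ras family exchange factor 58913 bases downstream, rose by a log2 fold change of 0.55 (SE 0.055, adjusted p = 1.4e-14 by edgeR), and the zinc finger gene ZNF487 by 0.73 (SE 0.19, adjusted p = 7.8e-04 by edgeR). HNRNPF, an abundant RNA-binding protein 34824 bases upstream, had a log2 fold change of 0.04 (SE 0.025, adjusted p = 0.156 by edgeR). FXYD4, the nearest gene upstream, had at most 3 reads in any library. Of 8 genes around AC068707.2, 5 were tested and 3 called, each higher, beside 51.5% of all genes called.

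**Figure D4:**
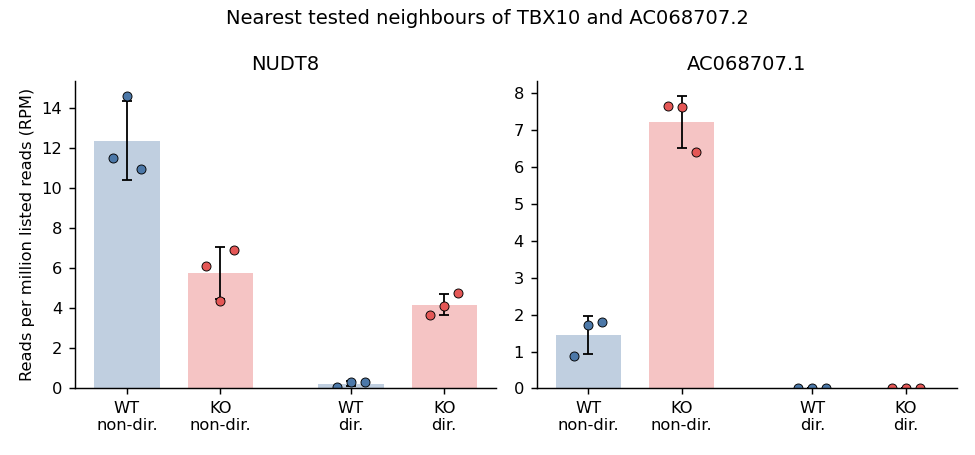
RPM of NUDT8, beside TBX10, and of AC068707.1, beside AC068707.2, in WT (blue) and SETDB1 knockout (KO, red) libraries of the non-directional (non-dir.) and directional (dir.) kits; points are libraries, bars the mean and error bars the SD of 3. NUDT8 falls from 12.3 to 5.77 RPM with the non-directional kit and rises from 0.231 to 4.18 RPM with the directional kit, whereas AC068707.1 rises from 1.46 to 7.22 RPM with the first and is at 0 in all 6 libraries of the second.

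Other T-box genes did not move as the reads listed under TBX10 did. TBX10 was chosen for its rise, and the strand of its reads was not tested. Of 16 other T-box genes listed, 8 were tested with the non-directional kit, and 4 were higher and 1 lower, beside 51.5% of all genes called. TBX18, a factor of heart and kidney development, rose most of them, from 93 to 111 reads in WT cells to 313 to 324 in the knockout (log2 fold change 1.59, SE 0.090, adjusted p = 2.1e-27 by edgeR). EOMES, a factor of early lineages, rose by a log2 fold change of 0.76 (SE 0.18, adjusted p = 2.9e-04 by edgeR), TBX2 by 0.72 (SE 0.13, adjusted p = 3.2e-06 by edgeR) and MGA, a Max partner, by 0.59 (SE 0.036, adjusted p = 1.7e-25 by edgeR). TBX3, close in sequence to TBX2, was lower, with a log2 fold change of -0.38 (SE 0.077, adjusted p = 2.1e-05 by edgeR), while TBX1, TBX5 and TBX20 were not called (log2 fold changes of 0.03, 0.15 and 0.26). The called genes had ratios between the kits of 0 to 0.016 in the knockout, against 1.07 for TBX10. TBX1, the T-box gene with the highest level per exon length, stood at 11.5 RPM per kilobase in the non-directional knockout libraries.

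The polo-like kinases with a full kinase domain gave a single call, 1 of 4 tested, beside 51.5% of all genes. PLK2, a stress-responsive kinase, was lower, with 67 to 99 reads in WT cells and 31 to 54 in the knockout (log2 fold change -0.98, SE 0.16, adjusted p = 2.6e-07 by edgeR). PLK1, the mitotic kinase, PLK3, and PLK4, which controls centriole duplication, had log2 fold changes of -0.0027, 0.03 and 0.02 and were not called (edgeR adjusted p of 0.950, 0.845 and 0.805). PLK1 stood at 65.9 RPM per kilobase in the non-directional knockout libraries and PLK5 at 1.40, both without regard to strand. The ratio between the kits was 0.0069 to 0.0098 for these 4 kinases in the knockout, against 0.692 for PLK5.

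The genes whose log2 CPM followed the 3 genes most closely over the 12 libraries were taken from 3020 genes tested in both kits. PLK5 was nearest to TBX10 (Pearson's r = 0.992), followed by FAM153A (0.990) and BASP1 (0.986), and PLK5 had the same 3 partners in reverse, TBX10, BASP1 (0.988) and FAM153A (0.986). AC068707.2 was followed most closely by AL391358.1 (0.993), ZNF517 (0.985) and MIR5689HG (0.981). Between the 3 genes r was 0.992 for TBX10 with PLK5, 0.975 for PLK5 with AC068707.2 and 0.950 for TBX10 with AC068707.2. The genes were chosen for the same pattern over genotype and kit, so a high r between them follows from the choice. All the correlations describe libraries that share kit and depth as well as genotype: CPM is scaled to gene counts, which were far fewer in the directional libraries, so that a gene with equal reads in both kits has a higher CPM with the directional kit. FAM153A, AL391358.1, ZNF517 and MIR5689HG also had ratios between the kits of 0.675 to 1.13 in the knockout, and BASP1 had 0.123.

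L1 elements, the retrotransposons that SETDB1 is known to silence, were looked for around the 3 genes. The deposited L1 tables list 6437 loci of the non-directional libraries. The nearest listed locus lay 0.366 Mb from AC068707.2, 1.37 Mb from PLK5 and 3.87 Mb from TBX10. L1 copies that these tables do not list were not looked for and may lie nearer. Within 1 Mb there were 8 listed loci, all around AC068707.2, and none had enough reads to be tested, with 0 to 15 reads per library. Of the 816 loci tested in the whole table, 28.4% were called by limma at an adjusted p under 0.05. The locus nearest to AC068707.2, an L1PA4 copy, had 0, 0 and 3 reads in WT cells and 2, 2 and 4 in the knockout, so at this depth no difference was detectable.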

How the data were processed

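RNA sequencing of HAP1 cells gave 12 libraries, 3 for each genotype and kit, grouped by their titles. The authors deposited raw gene counts in the HTSeq layout, for which the submitters' processing notes name hg38, Trim Galore 0.4.4, STAR 2.6.0a, SAMtools 1.9, Picard 2.23.8, HTSeq 0.11.1, DESeq2 and bedtools. The annotation and strand setting were not given in the sources used here. The authors also deposited an L1 signal per locus for the 6 non-directional libraries. All its values (100% within 0.01 of a read) were whole reads scaled by 1 factor for each library, from which the reads were taken back. The publication named in the header does not describe these libraries, so it served for style alone.

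All 58735 gene IDs matched GENCODE 29. Each kit was fitted alone over all genes with edgeR 4.0.16 (R 4.3.3; filterByExpr with a minimum count of 10 and total of 15, TMM, quasi-likelihood F-test) and Benjamini-Hochberg adjusted p-values, called under 0.05. SE is approximate: the size of the log2 fold change over the root of F. The kit difference is the genotype by kit term over 12 libraries. L1 signal was tested with limma 3.58.1 on log2(value + 1), and with edgeR on the recovered reads. RPM divides by all listed reads, CPM by gene counts. DESeq2 1.42.0, other filters and left-out libraries were alternatives. The fits were tested on simulated data. Intervals (95%, exact binomial) and the limit behind a count of 0 (3 reads) cover counting error only, since reads are not independent molecules. The titles call the replicates biological but name no cultures, so p-values measure only the spread between these libraries.

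The 3 genes, the neighbour window, the T-box and kinase lists, the markers and the rules were chosen with earlier results of these data known. Genes were named by rule: the 3 genes, SETDB1, the nearest genes on either side and any overlapping one, both families, and the 3 closest genes by correlation. The genes named by their ratio, and RPS15, GSTP1 and APC2 among the neighbours, were chosen after their values were seen.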

Additional observations from a re-analysis of the deposited data

Results flagged for a closer look

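The effect of the knockout differed between the kits for 2 of the neighbouring genes and for SETDB1, by the edgeR interaction test over 15832 genes, of which 1.82% passed. For NUDT8, beside TBX10, the directional log2 fold change was 5.324 above the non-directional one (SE 0.376, adjusted p = 8.5e-42), with every knockout library below every wild-type library in one kit and above it in the other. For RPS15, a ribosomal protein gene 83579 bases upstream of PLK5, it was 0.9527 above (SE 0.24, adjusted p = 0.0066), with 16 to 20 directional reads in WT cells and 31 to 41 in the knockout, and a ratio between the kits of 0.0036 and 0.0065. For SETDB1 it was 1.737 above (SE 0.453, adjusted p = 0.01), with 4 to 17 directional reads per library and an exon overlap with CERS2 on the opposite strand. The cause of these differences was not tested.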

How the results depend on the processing

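The log2 fold changes of the 3 genes kept their sign and stayed within the spread between replicates under every alternative run. Without single libraries they lay between 4.56 and 5.13 for TBX10, 3.36 and 3.82 for PLK5 and 2.26 and 2.62 for AC068707.2 with the non-directional kit, and between 4.26 and 4.67, 3.09 and 3.36, and 2.12 and 2.51 with the directional kit. Dividing by gene counts instead of listed reads raised the knockout ratio between the kits to 16.4, 10.6 and 12.9, since the directional tables hold few gene counts. Leaving the alignments that were not unique out of the listed reads lowered it to 0.997, 0.644 and 0.788. Genes called fell from 7089 to 1074 (498 higher, 576 lower) when a log2 fold change of at least 1 was required, and 870 lay at least 2-fold outside every wild-type library when the knockout libraries were summed to 1, an alternative added after seeing the data. DESeq2 called 330 in place of 769 genes with the directional kit, and 2 in place of 4 neighbours. Non-directional neighbours called moved from 15 of 21 to 4 with the fold threshold, and to 23 of 39 within 250 kb. Without opposite-strand overlap 7 of 13 were called, close to the 51.5% of all genes called without a fold threshold. The HNRNPF value reversed to -0.019 in the fit over all 12 libraries and was called without wild-type replicate 2 (0.05, adjusted p = 0.019), the RPS15 call of the non-directional kit was lost in 8 of 12 alternatives (adjusted p from 0.001 to 0.988) and its directional call under DESeq2 (0.058). The T-box genes called numbered 6 (5 higher) in place of 5 without knockout replicate 2 or without wild-type replicate 2. Of the other neighbours and family genes rerun one by one, REEP6 with the directional kit, as given above, was the one that lost its call. TBX1, TBX5, TBX20, PLK1, PLK3, PLK4, APC2 and the genes named by correlation or ratio were not rerun one by one. With 532021 to 676691 gene counts in directional libraries, smaller changes of genes at a few reads could be missed. Within a kit, WT and knockout libraries of the same number did not deviate together (r from -0.0264 to 0.0139), so genotypes were not paired by number. Libraries of the same number were not compared between the kits, and the kit ratios and differences treat them as independent. With the replicate block the values were 4.83, 3.51 and 2.42 with the non-directional and 4.40, 3.21 and 2.30 with the directional kit, 7074 and 712 genes were called, and no call of a gene rerun was lost.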
